A study of Mus musculus with 16 samples.

Results

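Cytochrome P450 enzymes are heme proteins that insert an oxygen atom into their substrates, and in the liver they oxidize drugs, fatty acids, steroids, bile acids and vitamins. Their genes carry names made of Cyp, a family number, subfamily letters and a member number, and all genes with such a name were followed here. This rule found 88 of the 30214 gene names on the array, which 113 probes of 60 bases measured. The study asked how initiation factor 6 (eIF6), a protein that keeps free large ribosomal subunits from joining small ones, acts on translation in insulin-stimulated hepatocytes. AML12 cells, a male mouse hepatocyte line kept in medium with dexamethasone and an insulin, transferrin and selenium supplement, carried a doxycycline-driven hairpin, which was scrambled in the control cells and targeted eIF6 in the others. Both kinds of cells received doxycycline and then 100 nM insulin for 1 h (another label field reads 100 mM), so no untreated cells were compared. Subpolysomal and polysomal RNA from sucrose gradients was hybridized on 16 one-colour arrays, with 4 replicates for each of 4 groups. The hairpins were delivered by lentivirus per the methods, and the labels do not say whether 1 or several hairpins and infections stand behind the replicates.

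P450s of families 1 to 4 act mainly on foreign compounds and fatty acids, while the higher families mostly make or break down steroids, bile acids, retinoic acid and vitamin D. In liver their expression is a sign of differentiated hepatocytes, and it is set by nuclear receptors and by liver transcription factors. Most of them sit in the endoplasmic reticulum and take electrons from P450 oxidoreductase, and a few are mitochondrial and use ferredoxin. Genes of 1 subfamily lie side by side on a chromosome and are so alike that a probe may also bind the messenger of a neighbour.

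The likeness can be read from the probes themselves. The following 30-base stretches are shown because probes of different members are much alike in them. The values of Cyp2c67 and Cyp2c68, and those of Cyp4a10 and Cyp4a31, cannot be taken as fully separate. Probes were compared only with each other, so binding of a probe elsewhere on a neighbour's messenger was not examined. Each stretch is written 5′ to 3′ as on the array, and capitals mark the bases at which the partners differ.
Cyp2c67: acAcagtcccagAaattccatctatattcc
Cyp2c68: acCcagtcccagGaattccatctatattcc
Cyp2c29: tggGcactttctaAatgCgaatggaaaCtt
Cyp2c37: tggCcactttctaGatgGgaatggaaaGtt
Cyp4a10: atcttccctcctttctgcaataaagTtccC
Cyp4a31: atcttccctcctttctgcaataaagGtccA
The Cyp2c67 probe (mm9 chr19:39683429-39683488, minus strand) and the Cyp2c68 probe (chr19:39763420-39763479, minus strand) overlapped over 59 bases with 4 mismatches. The Cyp2c29 probe (chr19:39403642-39403701, plus strand) shared 31 bases with 1 of the probes of Cyp2c37 (chr19:40084382-40084441, plus strand), again with 4 mismatches. That Cyp2c37 probe was well above background on no array, and the level of Cyp2c37 given below comes from its other probe. The Cyp4a10 (chr4:115206200-115206259, plus strand) and Cyp4a31 (chr4:115251553-115251612, plus strand) probes shared 47 bases with 3 mismatches. For the pairs with both probes above background, binding of 1 messenger to both probes cannot be told apart from expression of both genes. The files place probes on mm9 and give no exon or intron for them.

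A minority of the P450 genes was measurable in AML12 cells. A probe was kept when the scanner software called it well above background on at least 2 of the 4 arrays of at least 1 group, and a member was kept with any such probe. Of the 88 members 43 were kept, or 48.9%, against 64.1% of all gene names. A probe on all 16 arrays was found for 24 members, or 27.3%, against 48.2% of all gene names. No probe of 26 members passed on any array. The map of detection by group shows that the kept members were spread over many families.

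**Figure D1:**
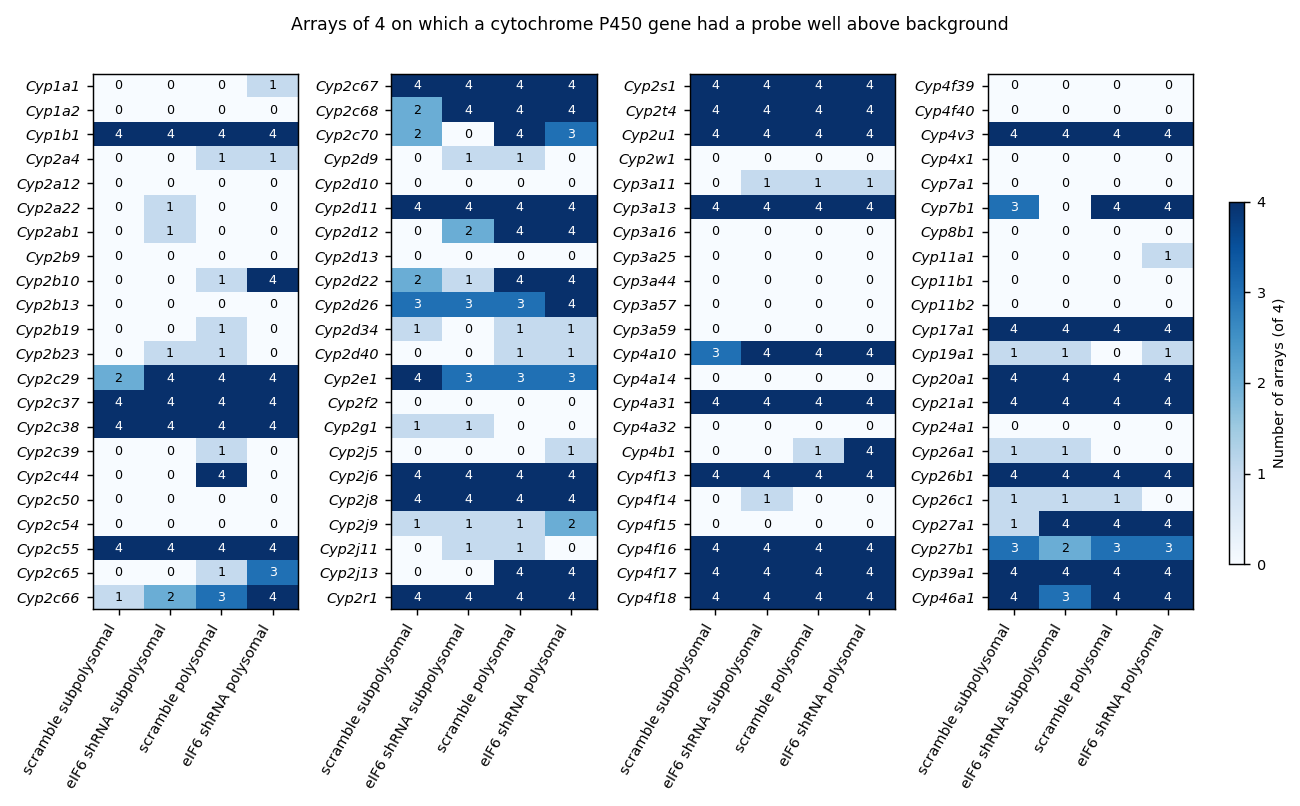
Number of arrays, of 4 in each group, on which any probe of a cytochrome P450 gene was well above background, with 1 row per gene and 1 column per group. Dark rows with 4 in every column, such as Cyp1b1, Cyp2s1 and Cyp4f13, alternate with rows at 0, such as Cyp1a2, Cyp7a1 and Cyp8b1.

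By family, 24 of 45 members of family 2 and 8 of 15 of family 4 were kept, but 1 of 7 of family 3. Within family 2 the Cyp2c subfamily, which oxidizes drugs and arachidonic acid, had 10 of 13 members kept. The Cyp2j subfamily, which epoxidizes arachidonic acid, had 4 of 6 and the Cyp2d subfamily 4 of 9. Of Cyp2b 1 of 5 and of Cyp2a 0 of 3 members were kept. Cyp3a13 was the kept member of Cyp3a, whereas Cyp3a11, a main drug-metabolizing P450 of mouse liver, was above background on single arrays of 3 groups. In family 4, which hydroxylates fatty acids, 4 of 8 Cyp4f genes, 2 of 4 Cyp4a genes, Cyp4b1 and Cyp4v3 were kept.

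Grouped by role, the P450s known from adult liver were kept for 14 of the 31 on the array. Cyp7a1, the rate-limiting enzyme of bile acid synthesis, and Cyp8b1, which makes cholic acid, were well above background on 0 of 16 arrays, as was the caffeine-oxidizing Cyp1a2. Of the bile acid and oxysterol enzymes, Cyp27a1, Cyp7b1, Cyp39a1 and Cyp46a1 were kept, 4 of 6. Of the steroid hormone enzymes, Cyp17a1 and Cyp21a1 were kept, 2 of 6, while Cyp11a1, Cyp11b1, Cyp11b2 and Cyp19a1 were not. Of the vitamin D enzymes, the 25-hydroxylase Cyp2r1 and the 1-alpha-hydroxylase Cyp27b1 were kept, and the 24-hydroxylase Cyp24a1 was not. Of the retinoic acid hydroxylases Cyp26b1 was kept, and Cyp26a1 and Cyp26c1 were not. The same arrays measured hepatocyte markers unevenly: 14 of 16 were kept, but albumin (Alb) was well above background on 0 scramble subpolysomal and 3 scramble polysomal arrays and on 2 arrays of each eIF6 shRNA group, and Ahsg and Fgb were not kept.

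More members, and more of all genes, were detected in polysomal than in subpolysomal groups, differences that were not tested. Of the kept members 31 were detected on at least 2 arrays in all 4 groups, 6 in 3 groups, 1 in 2 groups and 5 in 1 group. Cyp2b10, Cyp2c44, Cyp2c65, Cyp2j9, Cyp2j13 and Cyp4b1, 6 members, were detected in polysomal groups and in no subpolysomal group, and 0 members showed the opposite. This split was not counted over all genes. Of all genes, 18146 (scramble) and 17929 (eIF6 shRNA) were detected per polysomal array on average, and 16884 and 17095 per subpolysomal array. Members made up 0.214 to 0.244% of the genes detected on polysomal arrays and 0.175 to 0.231% on subpolysomal ones. On scramble subpolysomal arrays 28, 35, 34 and 35 members were detected, and on eIF6 shRNA subpolysomal arrays 29, 45, 33 and 33. The means of 33 ± 3.37 and 35 ± 6.93 (SD, n = 4) overlapped, with p = 0.829 in a two-sided exact permutation test. On polysomal arrays 40, 37, 45 and 44 members were detected with scramble shRNA and 45, 43, 39 and 43 with eIF6 shRNA. These means of 41.5 ± 3.70 and 42.5 ± 2.52 (SD, n = 4) gave p = 0.771 in the same exact test, whose smallest possible p was 0.0286. The array of slide 1 had the highest or joint highest count in each group, so slide moved with detection, and its part was not tested. The sign of either difference turned without a single array: -1.33 members without eIF6 shRNA subpolysomal replicate 2 (p = 0.543, exact) and -0.5 without scramble polysomal replicate 2 (p = 0.829, exact).

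Levels below are log2 signals after quantile normalization over all arrays, averaged over the kept probes of a gene. Changes are eIF6 shRNA minus scramble on that log2 scale, fitted with limma over all 19364 kept genes, and a gene was called at a Benjamini-Hochberg adjusted p under 0.05. The polysomal log2 signal of Eif6 itself was 12.95 ± 0.01 in scramble and 11.89 ± 0.08 in eIF6 shRNA cells (SD, n = 4), a change of -1.05 ± 0.08 (SE, adjusted p = 1.45e-07). Its subpolysomal log2 signals were 11.60 ± 0.06 and 11.61 ± 0.14. Whether fewer cells expressed a messenger or each cell held less of it cannot be told apart in these bulk samples.

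With quantile normalization, more P450 genes were called higher than lower in eIF6 shRNA cells. In polysomal RNA 4 of the 43 tested members (9.3%) were called lower, where 10.7% of all genes were, and 12 (27.9%) were called higher, where 11.1% of all genes were. In subpolysomal RNA 4 members (9.3%) were called lower against 12.3% of all genes, and 11 (25.6%) higher against 11.8% of all genes. The lower calls were thus near the share of all genes in both fractions. The median log2 change of the tested members was 0.29 on polysomes and 0.25 in subpolysomal RNA, and that of all genes was 0.02 in both. In all, 5 members were called lower and 14 higher in at least 1 fraction. Called in both fractions were 12 members, which is 12 of 16 polysomal and 12 of 15 subpolysomal calls, with the same sign in each. The matching shares of all genes were not counted, so these counts over both fractions describe the members alone.

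Part of these counts follows from the filter. Of 5 members kept through 1 polysomal group only, Cyp2b10, Cyp2c65 and Cyp4b1 (higher) and Cyp2c44 (lower) were among the polysomal calls, and Cyp2j9 was not. Since the filter chose these 4 for being high in that group, their changes are given below without a test, and the other 38 members gave 3 lower (7.89%) and 9 higher (23.7%) calls on polysomes. The shares of all genes kept through more than 1 group are not given, so these 2 counts have no matched background. Among the 24 members with a probe on all 16 arrays, 3 were called lower and 7 higher on polysomes, where the shares of all genes passing that filter were 11.7% and 12.8%. In subpolysomal RNA 3 and 9 of the 24 were called, against 14.7% and 15.8% of those genes. Under spike-in scaling too few members were called to tell whether the excess of higher calls remained. Scaled to 7 spike-in probes, every gene had an SE of 0.50, and 2 members were called lower (Cyp1b1 and Cyp2c44) and 1 higher (Cyp2b10) on polysomes, where 5.45% and 0.522% of all genes were. In subpolysomal RNA Cyp1b1 was called lower and 0 members higher, where 1.78% and 0.222% of all genes were, so every other member's call for the shRNA was lost under that scaling. The median of all genes was then -0.47 on polysomes and -0.23 in subpolysomal RNA. The plot of changes gives every member with both fractions side by side.

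**Figure D2:**
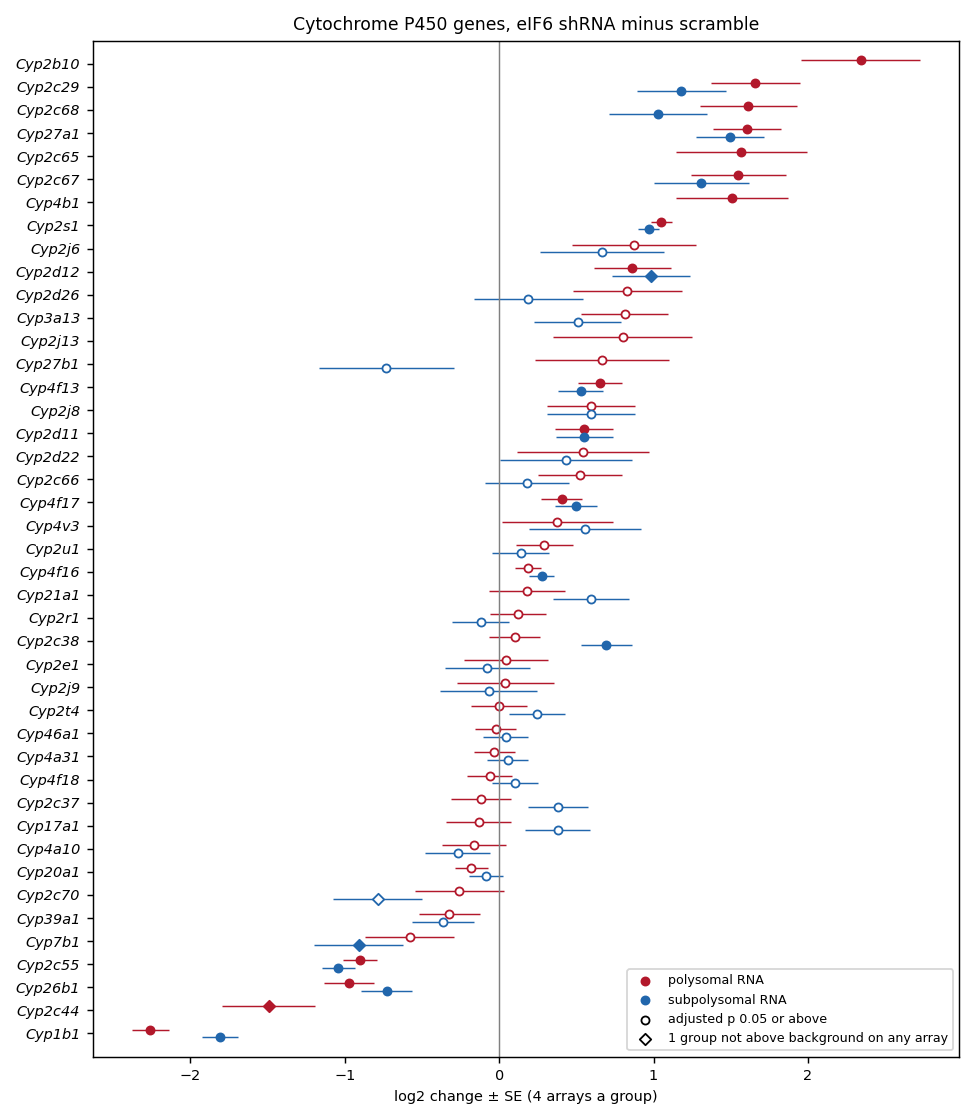
Log2 change (eIF6 shRNA minus scramble) ± SE of each kept cytochrome P450 gene in polysomal (red) and subpolysomal (blue) RNA, with 4 arrays a group. Filled symbols passed an adjusted p of 0.05, diamonds mark values with 1 group not above background on any array, and most filled symbols lie to the right of 0, with Cyp1b1 far to the left. The polysomal symbols of Cyp2b10, Cyp2c44, Cyp2c65 and Cyp4b1 belong to members that the filter kept through 1 polysomal group.

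Among the members acting on foreign compounds and steroids, Cyp1b1 fell most. Cyp1b1 oxidizes polycyclic hydrocarbons and oestradiol and is the kept member of the family induced through the aryl hydrocarbon receptor (Ahr). In polysomal RNA, Cyp1b1 (probe at chr17:80106547-80106606, minus strand) had log2 signals of 10.74, 10.58, 10.57 and 11.01 with scramble shRNA and of 8.42, 8.47, 8.40 and 8.56 with eIF6 shRNA. In subpolysomal RNA, Cyp1b1 had 11.01, 10.86, 10.84 and 10.91 with scramble and 9.24, 8.88, 9.34 and 8.93 with eIF6 shRNA. All eIF6 shRNA arrays lay below all scramble arrays in both fractions. Its log2 change was -2.26 ± 0.12 on polysomes (SE, adjusted p = 4.13e-09) and -1.81 ± 0.12 in subpolysomal RNA (adjusted p = 6.86e-08). Ahr had an adjusted p of 0.616 and 0.953 in these fractions. The call of Cyp1b1 held under every alternative run, spike-in scaling included (-2.81 and -2.00).

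Most markers of fibroblasts and stellate cells fell too. Of 9 such genes 8 were kept, and 7 (87.5%) fell on polysomes and 6 (75%) in subpolysomal RNA, where 10.7% and 12.3% of all genes did, with medians of -2.85 and -1.38 over the 8. The log2 of their summed signal was 17.39 to 18.13 on scramble polysomal arrays and 14.82 to 15.48 on eIF6 shRNA ones. In subpolysomal RNA it was 17.07 to 17.16 and 15.92 to 16.22. Col1a1, a chain of fibrillar collagen, had a log2 change of -3.11 on polysomes and -1.86 in subpolysomal RNA. For Col1a2, Acta2 and Thy1 the polysomal minus the subpolysomal change was also called, at -2.31, -1.87 and -0.91. The limma adjusted p values were 0.000794, 0.000328 and 0.00388, and 1.51% of all genes were called. These calls were lost with spike-in scaling, and the call of Thy1 also with fractions paired by culture. For Cyp1b1 that difference was not called (-0.45, adjusted p = 0.255). Cholangiocyte markers (6 of 6 kept) gave 1 polysomal and 2 subpolysomal calls, all higher, immune markers (5 of 5 kept) 1 lower and 0, and endothelial markers (2 of 4 kept) 0 in both. The part of such cells in the P450 changes was not tested.

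Cyp26b1, which clears retinoic acid, fell by less. In polysomal RNA, Cyp26b1 (probe at chr6:84521952-84522011, minus strand) had log2 signals of 8.98, 9.06, 8.89 and 9.27 with scramble and 7.85, 8.04, 7.97 and 8.44 with eIF6 shRNA. In subpolysomal RNA, Cyp26b1 had 8.92, 8.89, 9.0 and 8.52 against 7.90, 7.95, 8.01 and 8.54, so the groups overlapped through 1 eIF6 shRNA array. The log2 changes were -0.97 ± 0.16 (SE, adjusted p = 0.000413) on polysomes and -0.73 ± 0.16 (adjusted p = 0.00428) in subpolysomal RNA. Rarb, a retinoic acid receptor and itself a target of the acid, rose by a log2 change of 2.22 on polysomes and 1.92 in subpolysomal RNA. The related receptor Rarg fell by a log2 change of -0.51 (adjusted p = 0.0035) and -0.35 (adjusted p = 0.0347), and its subpolysomal call was lost in 5 of the 16 fits with 1 array left out, those without scramble subpolysomal replicate 2, 3 or 4 or eIF6 shRNA subpolysomal replicate 1 or 2 (adjusted p from 0.0172 to 0.103 over all arrays left out), with the 75th percentile and with no filter. Rara, the third of these receptors, had adjusted p values of 0.971 and 0.242.

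The vitamin D enzymes gave no call for the shRNA in either fraction. Cyp2r1 had a log2 signal of 5.77 ± 0.31 (SD, n = 4) on scramble and 5.89 ± 0.18 on eIF6 shRNA polysomes, and of 9.0 ± 0.17 and 8.88 ± 0.37 in subpolysomal RNA. Cyp27b1 was weak, with 3 scramble and 3 eIF6 shRNA polysomal arrays above background. Its polysomal log2 signals were 3.03, 2.95, 3.64 and 3.43 with scramble and 3.37, 3.39, 3.31 and 5.64 with eIF6 shRNA, so 1 array stood apart. The receptor of the hormone, Vdr, fell by a log2 change of -1.40 on polysomes and -1.04 in subpolysomal RNA.

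Cyp27a1, the mitochondrial sterol 27-hydroxylase of the acidic bile acid pathway, rose in both fractions. In polysomal RNA, Cyp27a1 (probe at chr1:74782203-74782262, plus strand) had log2 signals of 3.76, 4.04, 4.20 and 4.02 with scramble and 5.77, 5.76, 5.46 and 5.44 with eIF6 shRNA. In subpolysomal RNA, Cyp27a1 had 2.69, 3.23, 3.32 and 4.08 against 4.91, 4.81, 5.03 and 4.55, and 1 of the 4 scramble arrays was above background. The groups did not overlap in either fraction. The log2 changes were 1.60 ± 0.22 (SE, adjusted p = 6.87e-05) and 1.49 ± 0.22 (adjusted p = 0.000165).

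Cyp7b1, the oxysterol 7-alpha-hydroxylase of the same pathway, was called lower in subpolysomal RNA. Its subpolysomal log2 signals were 3.75, 4.03, 4.22 and 4.51 with scramble and 3.61, 2.11, 3.68 and 3.47 with eIF6 shRNA, of which 3 and 0 arrays were above background, so it was at least 1.51-fold lower (adjusted p = 0.0323). On polysomes Cyp7b1 had 5.18 ± 0.19 and 4.60 ± 0.27 (SD, n = 4), with an adjusted p of 0.187. The subpolysomal call was lost without scramble subpolysomal replicate 2, 3 or 4 (adjusted p = 0.0534, 0.0722 and 0.0855), with normexp background correction and with no filter on dim probes. On polysomes Cyp7b1 was called lower with normexp and with scaling to the 75th percentile. Cyp39a1 and Cyp46a1, hydroxylases of oxysterols and of cholesterol, gave no call, with polysomal log2 signals of 7.76 ± 0.06 and 7.43 ± 0.27 for Cyp39a1 and of 6.27 ± 0.10 and 6.25 ± 0.24 for Cyp46a1. For Cyp46a1 the value of eIF6 shRNA subpolysomal replicate 2 was missing as an outlier spot.

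The steroid hormone enzymes gave no call either. Cyp17a1, the 17-alpha-hydroxylase, had log2 signals of 8.78 ± 0.14 and 8.65 ± 0.23 on polysomes and of 10.33 ± 0.42 and 10.71 ± 0.39 in subpolysomal RNA (SD, n = 4). Cyp21a1, the 21-hydroxylase, had 5.69 ± 0.23 and 5.87 ± 0.34 on polysomes and 6.65 ± 0.41 and 7.24 ± 0.45 in subpolysomal RNA. A second Cyp21a1 probe was well above background on 0 arrays of each group, so its level rests on 1 of its probes.

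Family 2 held 24 of the 43 tested members and gave 10 of the 16 polysomal and 8 of the 15 subpolysomal calls. On polysomes 8.33% of its members were called lower and 33.3% higher, against 10.7% and 11.1% of all genes. In subpolysomal RNA the shares were 4.17% and 29.2%, against 12.3% and 11.8%. Of the other families 31.6% and 36.8% were called in these fractions, and of family 2 41.7% and 33.3%. Its polysomal calls include Cyp2b10, Cyp2c44 and Cyp2c65, kept through 1 polysomal group only. Cyp2c29, an epoxygenase of arachidonic acid, rose in both fractions. In polysomal RNA, Cyp2c29 had log2 signals of 5.35, 5.19, 4.87 and 5.95 with scramble and 6.68, 6.85, 7.04 and 7.43 with eIF6 shRNA. In subpolysomal RNA, Cyp2c29 had 3.55, 4.55, 4.60 and 3.46 against 5.15, 4.86, 5.41 and 5.46. The groups were apart in both fractions, with log2 changes of 1.66 ± 0.29 (SE, adjusted p = 0.000585) and 1.18 ± 0.29 (adjusted p = 0.00789).

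Cyp2c68, whose probe is shown above beside that of Cyp2c67, gave nearly the same values as Cyp2c29. Whether the probes of Cyp2c29 and Cyp2c68 bind the same messenger was not tested, so their calls cannot be taken as fully separate. In polysomal RNA, Cyp2c68 had log2 signals of 5.28, 5.09, 4.85 and 6.14 with scramble and 6.67, 6.76, 6.98 and 7.41 with eIF6 shRNA. In subpolysomal RNA, Cyp2c68 had 3.76, 4.94, 4.64 and 3.69 against 5.26, 4.86, 5.61 and 5.41, so 1 scramble array reached into the eIF6 shRNA range. The log2 change was 1.61 ± 0.32 (SE, adjusted p = 0.00152) on polysomes and 1.03 ± 0.32 (adjusted p = 0.0274) in subpolysomal RNA. The subpolysomal call of Cyp2c68 was lost without scramble subpolysomal replicate 1 or 4 (adjusted p = 0.0863 and 0.0799) and without eIF6 shRNA subpolysomal replicate 1, 3 or 4 (0.0533, 0.0766 and 0.0599), and also with normexp background correction and with no filter.

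Cyp2c67 was read by a further probe (chr19:39683541-39683600, minus strand) outside that overlap. In polysomal RNA, Cyp2c67 had log2 signals of 4.59, 3.34, 3.46 and 4.52 with scramble and 5.16, 5.30, 5.53 and 6.11 with eIF6 shRNA. In subpolysomal RNA, Cyp2c67 had 3.03, 4.06, 3.78 and 3.81 against 4.83, 4.87, 4.93 and 5.29, again with no overlap. The log2 changes were 1.55 ± 0.31 (SE, adjusted p = 0.00167) and 1.31 ± 0.31 (adjusted p = 0.00585). Taken singly, the probe that resembles Cyp2c68 changed by 1.39 on polysomes and 0.93 in subpolysomal RNA on the log2 scale. The further probe changed by 1.71 on polysomes, where 2 scramble and 4 eIF6 shRNA arrays were above background. In subpolysomal RNA that probe was above background on 0 scramble and 3 eIF6 shRNA arrays, so no change of its own is given there, and the subpolysomal change of Cyp2c67 includes its values below background.

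**Figure D3:**
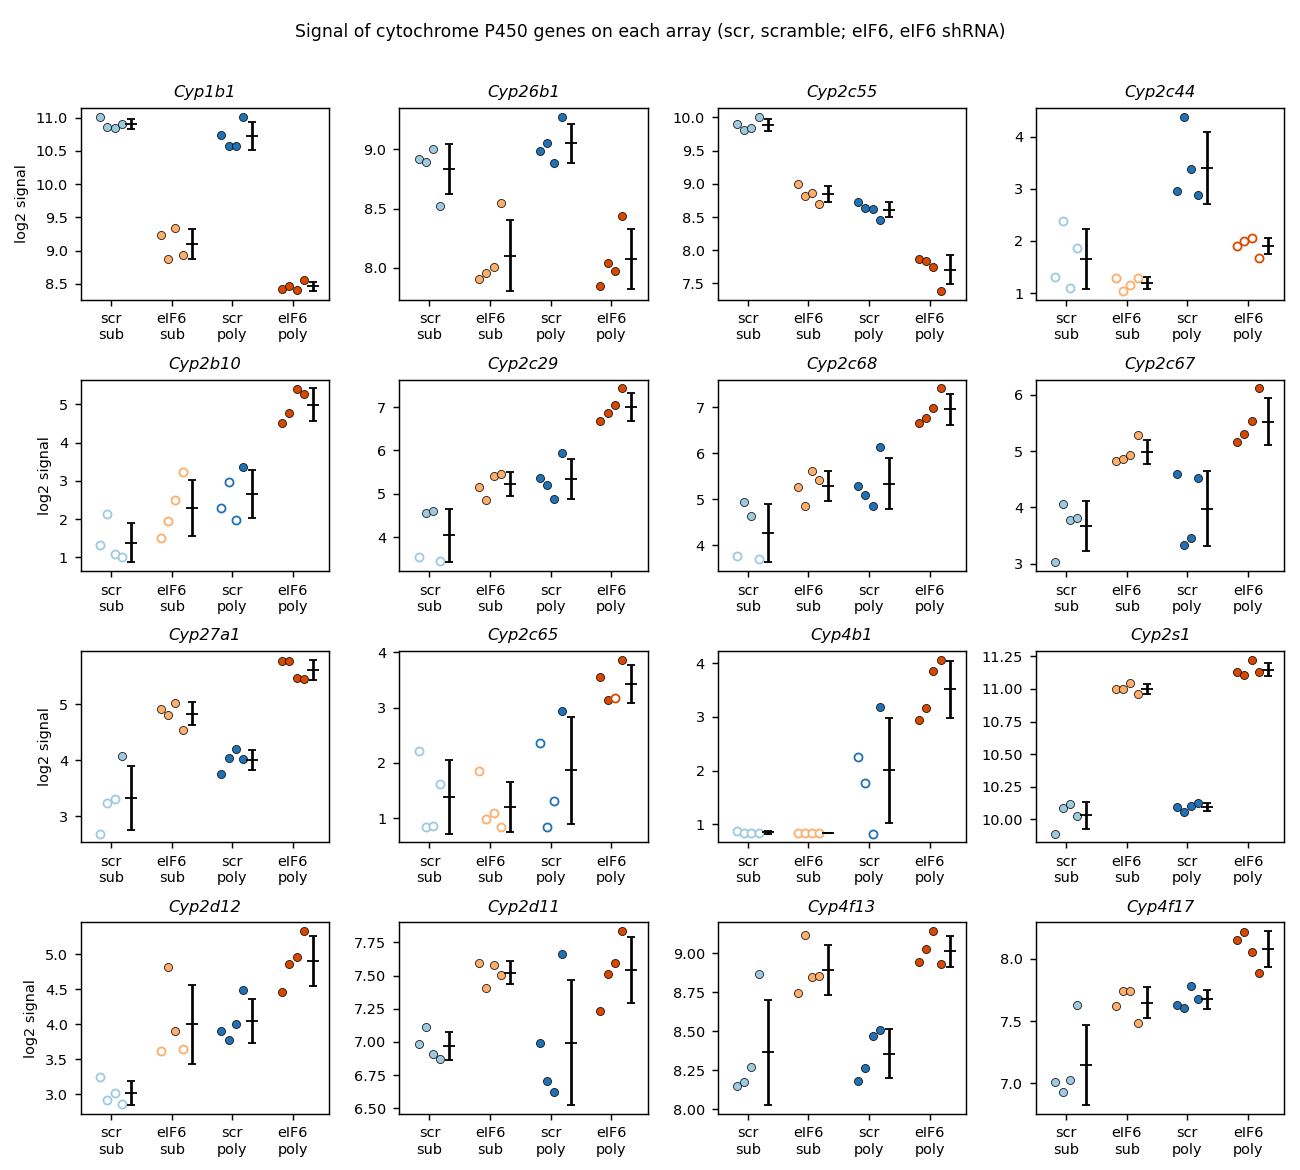
Log2 signal of 16 called cytochrome P450 genes on each array, with a panel for each gene and a column for each group (scr, scramble; eIF6, eIF6 shRNA; sub, subpolysomal; poly, polysomal). Filled points are arrays with a probe well above background, open points are not, bars give the mean ± SD of 4 arrays, and in Cyp1b1, Cyp2c55 and Cyp2s1 the shRNA groups are separated by far more than their spread.

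Other Cyp2c genes went the opposite way or did not move together. Cyp2c55, an epoxygenase and hydroxylase of arachidonic acid, fell in both fractions. In polysomal RNA, Cyp2c55 (probe at chr19:39116674-39116733, plus strand) had log2 signals of 8.73, 8.63, 8.62 and 8.46 with scramble and 7.87, 7.84, 7.74 and 7.39 with eIF6 shRNA. In subpolysomal RNA, Cyp2c55 had 9.89, 9.81, 9.83 and 10.00 against 8.99, 8.82, 8.87 and 8.69. The groups did not overlap, with log2 changes of -0.90 ± 0.11 (SE, adjusted p = 1.93e-05) and -1.04 ± 0.11 (adjusted p = 6.23e-06).

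Cyp2c44, the mouse epoxygenase now named Cyp2c23, was above background on the 4 scramble polysomal arrays and on no other array. In polysomal RNA, Cyp2c44 (probe at chr19:44079535-44079594, minus strand) had log2 signals of 2.95, 4.37, 3.38 and 2.88 with scramble and 1.89, 1.99, 2.05 and 1.68 with eIF6 shRNA. All eIF6 shRNA arrays lay below all scramble arrays, and Cyp2c44 was at least 1.52-fold lower with eIF6 shRNA. Cyp2c44 passed the filter through the scramble polysomal group alone, so this is a description, and its call in the counts was lost with normexp background correction. Cyp2c65 was above background on 1 scramble and 3 eIF6 shRNA polysomal arrays. In polysomal RNA, Cyp2c65 (probe at chr19:39167981-39168040, plus strand) had log2 signals of 2.35, 0.84, 1.31 and 2.95 with scramble and 3.56, 3.13, 3.17 and 3.87 with eIF6 shRNA. The means were 1.86 ± 0.96 and 3.43 ± 0.35 (SD, n = 4), without overlap. Since 3 scramble arrays were below background and the filter kept Cyp2c65 through the eIF6 shRNA polysomal group alone, no test is given, and its call in the counts was lost without scramble polysomal replicate 2.

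Cyp2c38 was called in subpolysomal RNA. In subpolysomal RNA, Cyp2c38 had log2 signals of 5.71, 5.55, 5.76 and 5.31 with scramble and 6.42, 6.43, 6.28 and 5.98 with eIF6 shRNA, a change of 0.69 ± 0.16 (SE, adjusted p = 0.00647) without overlap. On polysomes Cyp2c38 had 5.41 ± 0.35 and 5.51 ± 0.16 (SD, n = 4). Another Cyp2c38 probe was well above background on no array, so these values rest on a single probe. The remaining kept Cyp2c genes, Cyp2c37, Cyp2c66 and Cyp2c70, gave no call, and their polysomal log2 signals were 5.50 ± 0.25 and 5.38 ± 0.36, 3.78 ± 0.39 and 4.30 ± 0.36, and 4.29 ± 0.25 and 4.02 ± 0.26.

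Outside Cyp2c, the sharpest separation in family 2 was that of Cyp2s1, a P450 of epithelia outside the liver that acts on retinoids and eicosanoids. In polysomal RNA, Cyp2s1 (probe at chr7:26587495-26587554, minus strand) had log2 signals of 10.10, 10.06, 10.11 and 10.13 with scramble and 11.13, 11.11, 11.22 and 11.13 with eIF6 shRNA. In subpolysomal RNA, Cyp2s1 had 9.89, 10.09, 10.12 and 10.02 against 11.00, 11.00, 11.05 and 10.96. The log2 changes of 1.05 ± 0.07 (SE, adjusted p = 2.84e-08) and 0.97 ± 0.07 (adjusted p = 1.16e-07) were many times the spread of the arrays. Relative to the median of all genes, Cyp2s1 changed by 1.11 on polysomes under spike-in scaling, though it was not called there.

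Cyp2b10, the classic target of the constitutive androstane receptor (Nr1i3) in mouse liver, was detected on the 4 eIF6 shRNA polysomal arrays and on 1 other array. In polysomal RNA, Cyp2b10 (probe at chr7:26711522-26711581, plus strand) had log2 signals of 2.30, 2.96, 1.98 and 3.37 with scramble and 4.51, 4.77, 5.41 and 5.28 with eIF6 shRNA. The means were 2.65 ± 0.63 and 4.99 ± 0.42 (SD, n = 4), without overlap. As 3 scramble arrays were below background and the filter kept Cyp2b10 through the eIF6 shRNA polysomal group alone, these values are a description with no test. No subpolysomal array was above background, so no subpolysomal change is given. Nr1i3 itself had adjusted p values of 0.963 and 0.858 on polysomes and in subpolysomal RNA.

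The Cyp2d genes, relatives of the human debrisoquine hydroxylase, rose modestly where they were called. In polysomal RNA, Cyp2d12 (probe at chr15:82388259-82388501, plus strand) had log2 signals of 3.91, 3.77, 4.00 and 4.49 with scramble and 4.47, 4.86, 4.97 and 5.33 with eIF6 shRNA, so the groups overlapped slightly. The log2 change was 0.86 ± 0.25 (SE, adjusted p = 0.0223). In subpolysomal RNA 0 scramble and 2 eIF6 shRNA arrays were above background, and Cyp2d12 was at least 1.45-fold higher (adjusted p = 0.0104). Its polysomal call was lost without scramble polysomal replicate 1 or 2 (adjusted p = 0.061 and 0.0692) or eIF6 shRNA polysomal replicate 3 or 4 (0.054 and 0.0671), with scaling to the 75th percentile and with no filter. Its subpolysomal call was lost with normexp background correction.

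Cyp2d11 sat at the threshold. In polysomal RNA, Cyp2d11 had log2 signals of 6.99, 6.71, 6.62 and 7.66 with scramble and 7.23, 7.51, 7.60 and 7.84 with eIF6 shRNA, so scramble replicate 4 lay inside the eIF6 shRNA range. In subpolysomal RNA, Cyp2d11 had 6.99, 7.11, 6.91 and 6.87 against 7.59, 7.41, 7.58 and 7.5. The change was 0.55 on the log2 scale in both fractions (adjusted p = 0.0482 and 0.0435). The polysomal call held without scramble polysomal replicate 4 (0.77, adjusted p = 0.000665) or eIF6 shRNA polysomal replicate 1 (0.65, adjusted p = 0.0298) and was lost without any other single array. The subpolysomal call of Cyp2d11 was lost without 11 of the 16 arrays, and held without scramble polysomal replicate 2, 3 or 4 and eIF6 shRNA polysomal replicate 1 or 4. The adjusted p over the arrays left out ran from 0.000665 to 0.144 on polysomes and from 0.0041 to 0.0935 in subpolysomal RNA. With no filter both calls of Cyp2d11 were lost, the polysomal one also in the authors' table and the subpolysomal one also with the 75th percentile and with each fraction normalized alone. Cyp2d22 and Cyp2d26 gave no call, with polysomal log2 signals of 4.18 ± 0.61 and 4.73 ± 0.40 and of 3.46 ± 0.46 and 4.29 ± 0.31.

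The other kept genes of family 2 gave no call. Cyp2e1, which oxidizes ethanol, had polysomal log2 signals of 4.27 ± 0.50 and 4.32 ± 0.31. The epoxygenases Cyp2j6, Cyp2j8, Cyp2j9 and Cyp2j13 had 4.93 ± 0.87 and 5.80 ± 0.78, 7.04 ± 0.58 and 7.63 ± 0.52, 2.60 ± 0.61 and 2.64 ± 0.29, and 4.18 ± 0.59 and 4.98 ± 0.63. For each Cyp2j gene the spread over the polysomal arrays was wide beside the difference. Cyp2t4 had 4.88 ± 0.35 and 4.88 ± 0.26, and Cyp2u1, a fatty acid hydroxylase, 8.0 ± 0.18 and 8.29 ± 0.06 as the mean of 3 probes of very unlike brightness, which are described below. In subpolysomal RNA Cyp2j6 (3.39 ± 0.25 and 4.05 ± 0.30) and Cyp2j8 (5.98 ± 0.34 and 6.58 ± 0.14) were higher with eIF6 shRNA without overlap. Neither was called there (limma adjusted p = 0.262 and 0.15), and the subpolysomal groups of Cyp2j9 and Cyp2j13 overlapped.

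In family 4, Cyp4b1, an omega-hydroxylase of fatty acids, resembled Cyp2b10 in its detection. In polysomal RNA, Cyp4b1 (probe at chr4:115297406-115297465, minus strand) had log2 signals of 2.25, 1.77, 0.82 and 3.18 with scramble and 2.95, 3.17, 3.86 and 4.06 with eIF6 shRNA, with 1 and 4 arrays above background. Scramble replicate 4 lay inside the eIF6 shRNA range, and the means were 2.0 ± 0.98 and 3.51 ± 0.53 (SD, n = 4). Cyp4b1 too was kept through the eIF6 shRNA polysomal group alone, so no test is given. It was above background on no subpolysomal array.

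The Cyp4f genes inactivate leukotrienes and other eicosanoids. Of the 4 kept ones Cyp4f13 and Cyp4f17 rose in both fractions and Cyp4f16 in subpolysomal RNA, and Cyp4f18 was not called. In polysomal RNA, Cyp4f13 had log2 signals of 8.18, 8.27, 8.47 and 8.51 with scramble and 8.94, 9.03, 9.14 and 8.93 with eIF6 shRNA, a change of 0.65 ± 0.15 (SE, adjusted p = 0.00391). In subpolysomal RNA, Cyp4f13 had 8.15, 8.17, 8.27 and 8.86 against 8.75, 9.12, 8.85 and 8.85, a change of 0.53 (adjusted p = 0.0155), with scramble replicate 4 inside the eIF6 shRNA range. That call was lost without scramble subpolysomal replicate 1 or 2 or eIF6 shRNA subpolysomal replicate 2 (adjusted p = 0.0524, 0.0508 and 0.0528).

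Cyp4f17 and Cyp4f16 had smaller values. In polysomal RNA, Cyp4f17 had log2 signals of 7.63, 7.61, 7.78 and 7.68 with scramble and 8.15, 8.22, 8.05 and 7.89 with eIF6 shRNA, a change of 0.40 without overlap (adjusted p = 0.0457). In subpolysomal RNA, Cyp4f17 had 7.01, 6.93, 7.02 and 7.63 against 7.62, 7.75, 7.74 and 7.48, a change of 0.50 (adjusted p = 0.0144), with scramble replicate 4 inside the eIF6 shRNA range. The polysomal call of Cyp4f17 was lost without 12 of the 16 arrays, and held without scramble subpolysomal replicate 2 or 4 or eIF6 shRNA replicate 4 of either fraction (adjusted p from 0.00424 to 0.117 over all arrays left out). It was also lost with no filter. Cyp4f16 was called in subpolysomal RNA, at 8.48, 8.37, 8.50 and 8.67 against 8.69, 8.73, 8.88 and 8.81, a log2 change of 0.27 (adjusted p = 0.0272) that was lost without scramble subpolysomal replicate 1, 2 or 3 (0.064, 0.0891 and 0.0586) or eIF6 shRNA subpolysomal replicate 3 or 4 (0.0839 and 0.0601).

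The remaining genes of family 4 gave no call in either fraction. On polysomes Cyp4f18 had log2 signals of 5.02 ± 0.30 with scramble and 4.96 ± 0.19 with eIF6 shRNA (SD, n = 4), and Cyp4v3, a fatty acid hydroxylase of the eye and other tissues, had 6.49 ± 0.67 and 6.86 ± 0.68. The peroxisome proliferator targets Cyp4a10 and Cyp4a31 had 4.36 ± 0.39 and 4.20 ± 0.19, and 5.05 ± 0.21 and 5.02 ± 0.07. In other families, Cyp3a13 had 7.72 ± 0.43 and 8.54 ± 0.60, also without a call. The orphan Cyp20a1, not called either, had 7.02 ± 0.19 and 6.84 ± 0.14 as the mean of probes of unlike brightness, described below.

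Polysomal replicate 4 of both kinds of cells tended to read high for P450 genes. Of the 43 members 28 had their highest scramble polysomal value on replicate 4, where 34.6% of all genes did, and 24 had their highest eIF6 shRNA polysomal value on replicate 4, where 30.4% of all genes did. Without both arrays, an alternative chosen after the values were seen, 18 members (41.9%) were called on polysomes and 17 (39.5%) in subpolysomal RNA, where 23.4% and 30.7% of all genes were. With them, 21.8% and 24.2% of all genes were called.

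Translational efficiency, the polysomal change minus the subpolysomal change, was called for no member. In limma 0 of 43 members passed, where 1.51% of all genes did. Cyp1b1 had the value -0.45 (adjusted p = 0.255), so its fall on polysomes was not separable from that in subpolysomal RNA. Cyp26b1 had -0.24, Cyp2c55 0.14, Cyp2s1 0.08, Cyp27a1 0.11, Cyp2c29 0.48 and Cyp2c38 -0.59, all on the log2 scale and none called. Cyp27b1 had 1.40 (adjusted p = 0.368) and rested on weak signals. Cyp2b10 was called with another background correction and Cyp4b1 without scramble polysomal replicate 4 (1 member called in each), and both lacked subpolysomal signal above background.

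Along the gradient, P450 messengers lay at widely different positions. Because quantile normalization sets the arrays of both fractions to 1 distribution, polysomal minus subpolysomal log2 signal is a position relative to other genes. In scramble cells 7 of 43 members (16.3%) were called lower on polysomes, where 28.4% of all genes were, and 15 (34.9%) higher, where 31.7% of all genes were. In eIF6 shRNA cells 10 members (23.3%) were called lower against 28.7% of all genes, and 15 (34.9%) higher against 32.1%. The split moved with scaling in scramble cells: 17 lower and 8 higher with the 75th percentile, 1 and 36 with each fraction normalized alone, and 1 and 30 with spike-in scaling. In eIF6 shRNA cells the splits were 15 and 12, 1 and 37, and 1 and 25. The medians of all genes in scramble cells were 0.04, -0.20, 1.38 and 1.52 under these scalings in turn, starting from the main one, so what follows is the order of the members.

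**Figure D4:**
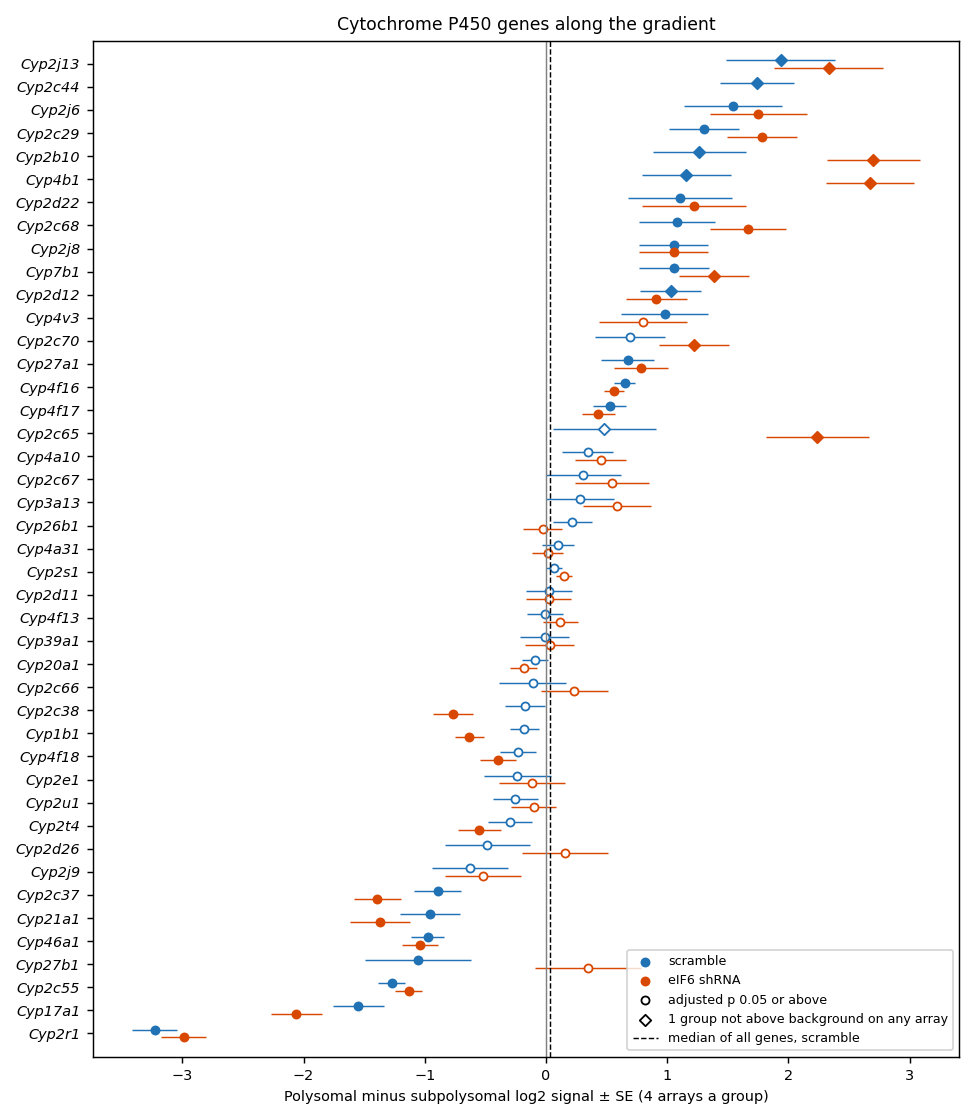
Polysomal minus subpolysomal log2 signal ± SE of each kept cytochrome P450 gene in scramble (blue) and eIF6 shRNA (orange) cells, with 4 arrays a group. Filled symbols passed an adjusted p of 0.05, diamonds mark values with 1 group not above background on any array, the dashed line is the median of all genes in scramble cells, and Cyp2r1 lies lowest in both kinds of cells.

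Cyp2r1, the vitamin D 25-hydroxylase, stood at the subpolysomal end. In scramble cells, Cyp2r1 (probe at chr7:121693769-121693828, minus strand) had log2 signals of 8.84, 9.0, 8.90 and 9.24 in subpolysomal and 5.70, 5.36, 5.96 and 6.05 in polysomal RNA. In eIF6 shRNA cells, Cyp2r1 had 8.94, 9.37, 8.53 and 8.67 against 5.87, 5.93, 5.65 and 6.09. The fractions were far apart in both, with log2 differences of -3.23 and -2.99 (adjusted p = 2.23e-09 and 6.31e-09). Relative to the median of all genes the scramble value was -3.26, at percentile 0.604 of all genes, and Cyp2r1 was also lower under spike-in scaling (-1.71, adjusted p = 0.00164). The value rests on 1 probe: the other Cyp2r1 probe (chr7:121693684-121693743, minus strand) lies beside it and was above background on 1 array.

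Cyp17a1 was next, with log2 differences of -1.55 in scramble and -2.06 in eIF6 shRNA cells. Cyp2c55 had -1.27 and -1.13, Cyp46a1 -0.98 and -1.04, Cyp21a1 -0.96 and -1.37, and Cyp2c37 -0.90 and -1.39. Each of these 5 passed the test in both kinds of cells and turned positive in scramble cells when each fraction was normalized alone or scaled to spike-ins. Cyp27b1 was called in scramble cells (-1.05, adjusted p = 0.0499) and lost the call in 12 of the 16 fits with 1 array left out, all but those without scramble subpolysomal replicate 1, scramble polysomal replicate 3 or eIF6 shRNA polysomal replicate 3 or 4 (adjusted p from 0.00193 to 0.116 over all arrays left out).

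At the polysomal end were Cyp2c29, with log2 differences of 1.30 and 1.78, and Cyp2c68, with 1.08 and 1.67. Cyp2j6 had 1.54 and 1.75, but 1 of its 2 kept probes was above background on 0 subpolysomal arrays, and the other probe alone gave 1.64 and 1.27. Cyp2j8 had 1.05 in both kinds of cells, and Cyp27a1 had 0.67 and 0.78, the first of which was lost without scramble subpolysomal replicate 1 (0.46, adjusted p = 0.0553). Cyp4f16 had 0.65 and 0.56, and Cyp4f17 0.53 and 0.43. For members dim in subpolysomal RNA, bounds were given instead: Cyp7b1 was at least 2.1-fold higher on polysomes in eIF6 shRNA cells and Cyp2d12 at least 1.5-fold higher in scramble cells. Cyp2j13 was at least 1.56-fold higher in scramble and 2.85-fold in eIF6 shRNA cells, and Cyp2b10 at least 2.87-fold higher in eIF6 shRNA cells, but both were kept through polysomal groups only, so the filter fixed the direction. Of the 15 members called higher, 4 in each kind of cells had been kept that way. The values of Cyp2j8 and Cyp2j13 rest on 1 kept probe each, as their other probes did not pass the filter.

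Probes of 1 gene did not always agree on the gradient. Of the 88 members 20 had several probes. All probes were kept for 6 of these, some for 9 and none for 5. The 2 kept probes of Cyp20a1, at scramble polysomal log2 signals of 9.90 and 4.15, lay on opposite sides. Their polysomal minus subpolysomal differences were 0.78 and -0.955 in scramble and 0.59 and -0.96 in eIF6 shRNA cells. The uncalled gene means of -0.09 and -0.18 lay between them. The 3 kept probes of Cyp2u1, at scramble polysomal log2 signals of 14.42, 5.21 and 4.37, had scramble differences of 0.47, -1.01 and -0.23 on the log2 scale. For the shRNA, the bright probe of Cyp2u1 changed by 0.78 on polysomes and 0.65 in subpolysomal RNA, and the others by 0.01 and 0.09 on polysomes and 0.29 and -0.53 in subpolysomal RNA, values that were not tested singly. The 2 kept probes of Cyp4a10 had polysomal changes of 0.04 and -0.36, the 1 case in 7 of opposite sign for the shRNA.

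The genes that serve P450s gave few calls. Of the redox partners 7 of 7 were kept, and 1, Cyb5b, the outer mitochondrial cytochrome b5, fell, by a log2 change of -0.33 on polysomes (adjusted p = 0.0159) and -0.45 in subpolysomal RNA (adjusted p = 0.0022). The polysomal call of Cyb5b was lost with the brightest probe alone and without scramble polysomal replicate 2 or eIF6 shRNA polysomal replicate 1 (adjusted p from 0.00533 to 0.0542 over all arrays left out). P450 oxidoreductase (Por) had polysomal log2 signals of 11.23 ± 0.53 and 11.33 ± 0.50 (SD, n = 4). Of the genes of heme synthesis and breakdown 12 of 12 were kept, with 1 lower (8.33%) on polysomes, where 10.7% of all genes were, and 2 higher (16.7%) in subpolysomal RNA, where 11.8% of all genes were. Urod, the uroporphyrinogen decarboxylase, rose in subpolysomal RNA by 0.68 (adjusted p = 0.00392). Blvrb, a biliverdin reductase, had a log2 change of -0.52 on polysomes and of 0.31 in subpolysomal RNA (adjusted p = 0.0386), and was the called member of that list in translational efficiency (-0.83, adjusted p = 0.00798). Its subpolysomal call was lost in 6 of the 16 fits with 1 array left out, those without replicate 1 or 4 of either subpolysomal group, scramble subpolysomal replicate 2 or eIF6 shRNA subpolysomal replicate 3 (adjusted p from 0.0167 to 0.107), with the 75th percentile and with no filter. The call of Blvrb in translational efficiency was lost with spike-in scaling and with fractions paired by culture.

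Of the transcription factors and receptors that set P450 expression 17 of 18 were kept, with 3 lower and 3 higher (17.6% each) on polysomes, against 10.7% and 11.1% of all genes, and 2 and 2 (11.8% each) in subpolysomal RNA, against 12.3% and 11.8%. Nr1i2, the pregnane X receptor, was above background on 3 scramble and 0 eIF6 shRNA polysomal arrays and at least 1.82-fold lower there, but it was kept through the scramble polysomal group alone. Onecut1, a liver transcription factor, rose by 1.20 on polysomes and 0.95 in subpolysomal RNA on the log2 scale. Among the hepatocyte markers 3 of 14 (21.4%) rose on polysomes and 2 (14.3%) in subpolysomal RNA, against 11.1% and 11.8% of all genes, and 0 fell. Transthyretin (Ttr) had a log2 change of 1.15 on polysomes and 1.33 in subpolysomal RNA. The fetal liver protein Afp had 1.26 and 1.19.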

How the data were processed

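Polysomal and subpolysomal RNA of AML12 cells was measured on 16 one-colour Agilent arrays, 4 per group, with groups taken from the sample labels and eIF6 as the target from the methods. The authors deposited, for each array, the processed signal intensity per spot from the scanner software (background corrected within the array, with no scaling between arrays), and a table of log2 values that was quantile normalized. The columns of that table had a median of 4.636 each and correlated at 0.995 to 1 with the intensities. Per the file headers Feature Extraction 10.7.3.1 was used with a scan resolution of 5 µm, whereas the submitters' processing notes name 10.7.7.1. No comparison columns of the authors were used, and 0 columns of samples were left unused.

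Control and outlier spots were left out (82 missing probe values), repeated spots were averaged, and 25259 of 39429 probes (64.1%) that passed the scanner software's background call (well above background) on 2 or more of the 4 arrays in any group were kept. Their log2 intensities were quantile normalized and averaged over the kept probes of a gene name. limma 3.58.1 in R 4.3.3 fitted 4 group means to 19364 genes, moderated the variances, and adjusted 5 contrasts by Benjamini-Hochberg, with a threshold of 0.05. Where a group had no array above background, the brighter group's mean was set against the mean, per array, of the lowest signal well above background or the probe's own signal if higher, and written as "at least N-fold". The replicates are biological quadruplicates per the methods, and precision is limited by the number of arrays. The fit was tested on simulated data.

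The members and lists were chosen with earlier results of these data known. The text names all kept members and, for other genes, part of those called in the lists of redox partners, heme enzymes, regulators and cell type markers. Of the member names 87 of 88 matched a current symbol of the RefSeq genes, and 1 name was updated by accession. RefSeq was used for names alone. Probe coordinates (mm9) and probe sequences are those of the deposited files. Alternatives were scaling to the 75th percentile, to spike-in probes or within fractions, normexp background correction with an offset of 50, other filters, the brightest probe, the authors' table, the slide or replicate number as a block, and each array left out. Plots used Python 3.11.15 and matplotlib 3.10.9.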

Additional observations from a re-analysis of the deposited data

Results flagged for a closer look

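In 8 of the 171 groups of 4 arrays examined, 1 array lay apart from the other arrays of its group by Dixon's criterion (gap over range above 0.829), and chance alone gives about 1 in 20. Cyp26b1 was highest on eIF6 shRNA subpolysomal replicate 4, at a log2 signal of 8.54, where the nearest array had 8.01. Cyp27b1 was lowest on scramble subpolysomal replicate 1, at 3.46 with 4.54 as the nearest value, and highest on eIF6 shRNA polysomal replicate 4, at 5.64 with 3.39 as the nearest. Cyp2c70 was lowest on eIF6 shRNA subpolysomal replicate 3, at 1.87 against 3.05. Cyp4f13 and Cyp4f17 were both highest on scramble subpolysomal replicate 4, at 8.86 against 8.27 and at 7.63 against 7.02. Cyp4f18 was lowest on eIF6 shRNA subpolysomal replicate 4, at 5.12 against 5.42. Cyp7b1 was lowest on eIF6 shRNA subpolysomal replicate 2, at 2.11 against 3.47, and none of the arrays of that group was above background.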

How the results depend on the processing

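Scaling mattered most. With spike-in scaling the members called were 3 on polysomes (Cyp1b1, Cyp2b10 and Cyp2c44) and 1 in subpolysomal RNA (Cyp1b1). Under it the polysomal log2 change turned to -0.45 for Cyp2c38, -0.27 for Cyp4f16 and -0.056 for Cyp4f17, the subpolysomal one of Cyp4f16 to -0.022, and the translational efficiency of Cyp2c55 to -0.16, of Cyp2s1 to -0.027 and of Cyp27a1 to -0.062. Leaving out scramble subpolysomal replicate 4 turned that of Cyp27a1 to -0.14. The medians of all genes were also lower under spike-in scaling, as given above, and their part in the turns under that scaling was not tested.

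With each fraction normalized alone 37 members were called along the gradient in scramble and 38 in eIF6 shRNA cells. Under that setting and under spike-in scaling, in this order, the scramble difference turned to 0.10 and 0.22 for Cyp17a1, 0.28 and 0.42 for Cyp21a1, 0.30 and 0.44 for Cyp2c37, 0.35 and 0.48 for Cyp2c55, and 0.37 and 0.49 for Cyp46a1, and that of Cyp27b1 turned to 0.0064 with spike-ins. The eIF6 shRNA difference turned to 0.95 and 0.87 for Cyp1b1, 0.42 and 0.30 for Cyp2c38, 0.40 and 0.32 for Cyp2c55, 0.49 and 0.37 for Cyp2t4, 0.30 and 0.089 for Cyp46a1, and 0.65 and 0.50 for Cyp4f18.

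Restricting the test to probes on all 16 arrays, which leaves 24 members, gave 10 polysomal calls and 11 and 14 gradient calls in scramble and eIF6 shRNA cells. With the looser call of a positive and significant signal 78 members were kept and 38 were on all arrays. The normexp correction and leaving out scramble polysomal replicate 4 each gave 1 call in translational efficiency. With each array left out in turn, 12 to 18 members were called on polysomes, 11 to 16 in subpolysomal RNA, 0 to 1 in translational efficiency, 19 to 24 and 22 to 27 along the gradient, 42 to 43 were kept and 24 to 25 were on all arrays. The difference in members detected ran from -1.33 to 4 in subpolysomal and from -0.5 to 2.17 in polysomal RNA.

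Arrays of the same replicate number did not in general deviate together (correlations of -0.21 to 0.41 over 24 pairs, median -0.01). Only 3 of 16 arrays matched their own number best, so the numbers were not taken as pairs. The highest of these correlations, 0.41, lay above the highest of 0.14 for pairs sharing neither number nor slide. Deviation was thus not unrelated in every pair of the same number. Arrays of the same slide correlated at -0.07 to 0.25 (median 0.13, against -0.05 for pairs sharing neither). With the replicate block 14, 16 and 0 members were called on polysomes (without Cyp2d11 and Cyp4f17), in subpolysomal RNA and in translational efficiency, and 23 and 27 along the gradient. The subpolysomal calls of Rarg and Blvrb were also lost with it. Pairing fractions by culture gave 0, 21 and 26 for the last 3. With the slide as a block the counts were 17, 15, 0, 22 and 27. The causes of these shifts were not tested. Members close to background are limited by signal, since below it only a bound can be given.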
